A study of Mus musculus with 16 samples.

Results

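The transcripts described here are those of 10 apolipoprotein genes: Apoa1, Apoa2, Apoa4, Apoa5, Apob, Apoc1, Apoc2, Apoc3, Apoc4 and Apoe. They were chosen by name as apolipoproteins made by the liver, and their array probes were found through the RefSeq accession that each probe carries. A probe was found for 9 of the 10, with 11 probes in all, and these 9 were all among the 15049 genes tested. Apoc2 had no probe under its current accessions and was not measured here. Every probe of the 9 genes was well above background in both channels of all 16 arrays, and none was saturated.

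The cells were primary hepatocytes, the parenchymal cells of the liver, from male C57Bl/J mice, cultured in Williams Medium E. Starting 48 h after plating, cultures were kept for 48 h with SQ1 at 100 µM, with pravastatin at 30 µM, or untreated as controls. SQ1 (squalestatin 1) blocks squalene synthase, and pravastatin blocks HMG-CoA reductase, an enzyme further upstream in the synthesis of cholesterol. Each 2-colour Agilent array measured RNA of treated cells against RNA of control cells, on 8 arrays for SQ1 and 8 for pravastatin, with the dyes turned round on 4 arrays of each drug. The series calls the 8 treated and 8 control samples biological replicates, the number of animals behind them is not given in the labels, and p-values here measure the spread between arrays. The deposited array names give the same control number to the same-numbered SQ1 and pravastatin arrays, so that both comparisons may share control RNA. Their values are given side by side and are not independent of each other. The doses differ, and for SQ1 the labelled unit is in doubt because squalestatins act at far lower doses. A difference between the drugs is therefore one between these treatments.

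Apolipoproteins are the proteins of lipoprotein particles, which carry lipids through blood. Apob forms the backbone of the particles that the liver secretes with triglyceride, Apoa1 and Apoa2 are the main proteins of high-density lipoprotein (HDL), and the smaller apolipoproteins move between particles and steer lipases and receptors. The hepatocyte makes most of them and exports them as part of its secreted protein.

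Apolipoprotein transcripts fell with both drugs, and 7 of the 9 measured were lower with pravastatin than with SQ1. That comparison of the drugs did not pair the arrays by replicate number. With SQ1, 7 of the 9 measured genes fell (Apoa1, Apoa2, Apoa4, Apoc1, Apoc3, Apoc4 and Apoe), 0 rose, and Apoa5 and Apob did not pass the test. With pravastatin all 9 fell. The test was limma's moderated test of the log2 ratio of treated over control, fitted over all genes, with Benjamini-Hochberg adjustment and a threshold of 0.05. By the same test 32.3% of all genes tested were called with SQ1 and 16.6% were called lower. With pravastatin 66.7% of all genes were called and 35.8% were called lower. The median log2 change of the 9 genes was -0.30 with SQ1, where the median of all genes was -0.002, and -1.28 with pravastatin, where it was -0.012. The ratio was below 0 on all 8 SQ1 arrays for 4 members (Apoa2, Apoa4, Apoc1 and Apoc3), as for 11.8% of genes with a ratio on every array, and on all 8 pravastatin arrays for every member except Apoa5, as for 26.3% of those genes. These cultures were measured as a whole, so that fewer hepatocytes and less transcript per hepatocyte cannot be told apart.

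**Figure D1:**
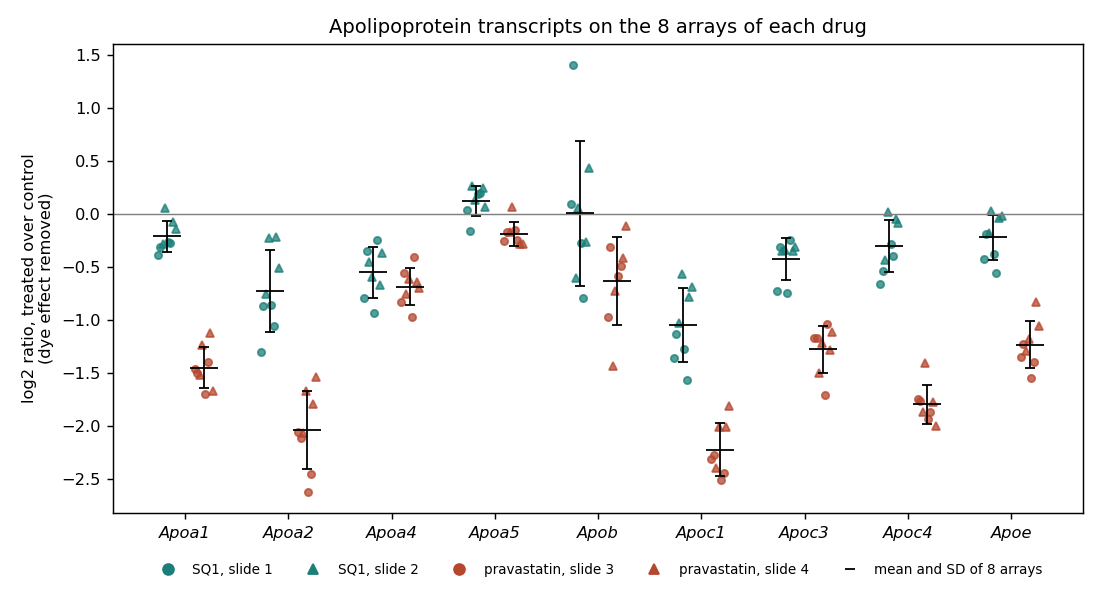
Log2 ratio of treated over control RNA (vertical axis, dye effect removed) for the 9 measured apolipoprotein genes on each of the 8 SQ1 arrays (teal) and 8 pravastatin arrays (red), circles and triangles marking the slides, with the mean and SD as black bars. The pravastatin points lie wholly below the SQ1 points for Apoa1, Apoa2, Apoc1, Apoc3, Apoc4 and Apoe, and the drugs overlap for Apoa4, Apoa5 and Apob.

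The upstream sequences of 4 members are shown because the set holds genes that the drugs moved by very different amounts (Apoa1 and Apoc4), a gene that they moved by like amounts (Apoa4) and the gene whose arrays scattered most (Apob). Each is the 250 bases before the only transcription start that RefSeq lists for the gene (mouse build GRCm38.p6), written 5′ to 3′ in the direction of the gene. The capitals mark matches to any of 8 short motifs on either strand.
Apoa1 promoter, chr9:46228380-46228629, plus strand: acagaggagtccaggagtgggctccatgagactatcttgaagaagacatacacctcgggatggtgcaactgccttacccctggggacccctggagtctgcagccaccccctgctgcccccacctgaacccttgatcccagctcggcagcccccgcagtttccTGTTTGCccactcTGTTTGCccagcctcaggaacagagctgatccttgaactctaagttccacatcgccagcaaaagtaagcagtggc
Apoa4 promoter, chr9:46240594-46240843, plus strand: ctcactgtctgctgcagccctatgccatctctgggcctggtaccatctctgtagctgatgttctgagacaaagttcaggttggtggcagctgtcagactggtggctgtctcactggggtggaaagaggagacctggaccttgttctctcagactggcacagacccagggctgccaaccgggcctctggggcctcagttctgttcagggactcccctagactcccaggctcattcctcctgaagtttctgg
Apoc4 promoter, chr7:19681461-19681710, minus strand: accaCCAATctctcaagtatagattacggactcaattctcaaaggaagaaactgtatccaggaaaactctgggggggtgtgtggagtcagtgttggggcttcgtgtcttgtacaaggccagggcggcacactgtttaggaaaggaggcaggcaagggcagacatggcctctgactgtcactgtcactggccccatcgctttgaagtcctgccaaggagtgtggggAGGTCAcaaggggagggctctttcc
Apob promoter, chr12:7977427-7977676, plus strand: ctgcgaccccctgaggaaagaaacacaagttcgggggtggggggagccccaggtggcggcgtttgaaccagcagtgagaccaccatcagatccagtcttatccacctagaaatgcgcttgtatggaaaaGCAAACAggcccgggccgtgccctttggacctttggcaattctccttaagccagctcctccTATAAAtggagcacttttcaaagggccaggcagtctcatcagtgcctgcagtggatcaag
The motifs searched, on both strands, were AGGTCA and GGGTCA, letters that nuclear receptors bind, CAAAGTCC, which HNF4A can bind, and GTTAAT, a part of HNF1 sites. TGTTTGC, a forkhead factor core, TCACCCCAC, a sterol element, CCAAT and TATAAA completed the set, and none of the 8 contains another. Apoa1 holds TGTTTGC 88 and 75 bases before its start, a motif that 4.3% of 32851 RefSeq windows of this length contain. Apoc4 holds AGGTCA 25 bases and CCAAT 246 bases before its start, which 14% and 33.8% of windows contain. Apob holds TATAAA 60 bases and TGTTTGC on the reverse strand 121 bases before its start, and TATAAA is found in 12.4% of windows. Apoa4 holds none of the 8 motifs in this window. Windows were listed for 8 of the 10 members, and for Apoc1 and Apoc3 none is printed. A match of letters is a description of the sequence only.

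Apoa1 encodes the main structural protein of HDL and activates the enzyme that esterifies its cholesterol. Its log2 level in the treated channel was 16.2 at the lowest, 16.6 at the median and 16.8 at the highest with SQ1, against 16.3, 16.8 and 17.1 in the control channel of the same arrays. With pravastatin the treated level was 14.7, 15.3 and 15.8, against 16.3, 16.8 and 17.3 in the control channel. The SQ1 and control levels overlapped, while every pravastatin sample lay below every control sample. How many of all genes tested had levels apart like this was not counted, here or for the other members. The SQ1 ratios ran from -0.38 through a median of -0.27 to 0.05, below 0 on 7 of 8 arrays, and the fitted change was -0.21 ± 0.06 (SE of the limma fit, adjusted p = 0.012), or 1.16-fold lower. The pravastatin ratios ran from -1.70 through -1.48 to -1.13, and the fitted change was -1.45 ± 0.06 (limma adjusted p = 5.86e-12), or 2.74-fold lower. Apoa1 was thus at 86.4% of its control level with SQ1 and at 36.5% with pravastatin.

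Apoa2 encodes the other main HDL protein. Its SQ1 ratios spread from -1.30 through -0.81 to -0.22, all below 0, and those of pravastatin from -2.62 through -2.07 to -1.54. The fit gave -0.73 ± 0.13 with SQ1 (limma adjusted p = 0.00033) and -2.04 ± 0.13 with pravastatin (limma adjusted p = 5.42e-10). Apoa2 therefore stood 1.65-fold lower with SQ1 and 4.12-fold lower with pravastatin. The other Apoa2 probe on the array moved the same way by less, at -0.50 ± 0.09 with SQ1 (limma adjusted p = 0.00086) and -1.40 ± 0.09 with pravastatin (limma adjusted p = 1.89e-09). The amount of the change in Apoa2 thus depended on the probe, and its direction did not.

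Apoa4, a protein of HDL and of triglyceride-rich particles whose amount in mouse liver is known to follow the fat content of the organ, had the smallest difference between the drugs. Its SQ1 ratios were between -0.94 and -0.25 with a median of -0.53, and its pravastatin ratios between -0.98 and -0.41 with a median of -0.67. All 16 arrays were below 0 and the ranges of the drugs nearly coincided. Apoa4 fell to a fitted -0.55 ± 0.07 with SQ1 (limma adjusted p = 2.35e-05) and -0.69 ± 0.07 with pravastatin (limma adjusted p = 2.61e-07), that is 1.47-fold and 1.61-fold lower.

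Apob encodes the large protein on which very-low-density lipoprotein is assembled. Its level on the SQ1 arrays was 14.8, 15.6 and 16.1 (lowest, median, highest) in the treated channel, against 14.3, 15.6 and 16.2 in the control channel. The SQ1 ratios scattered from -0.79 through -0.11 to 1.40, with 4 arrays below and 4 above 0, the widest scatter of any member. The fit gave 0.01 ± 0.19 (limma adjusted p = 0.987, 95% interval -0.39 to 0.40), so that a change of either sign within that interval was not detectable. The highest ratio came from SQ1 replicate 2, and without it the estimate was -0.21 ± 0.14 (limma adjusted p = 0.299). With pravastatin the Apob ratios ran from -1.44 through -0.54 to -0.12, all 8 below 0, and the fitted change was -0.63 ± 0.19 (limma adjusted p = 0.00697), or 1.55-fold lower. Fits with slide or scan day as a random block, and median centring of each array in place of loess, each ended this call (limma adjusted p = 0.0741, 0.0608 and 0.0514). The other Apob probe gave -0.22 ± 0.15 with SQ1 (limma adjusted p = 0.297) and -0.76 ± 0.15 with pravastatin (limma adjusted p = 0.00032). Its pravastatin ratios also scattered, from -1.42 to 0.09, with 2 arrays above 0.

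Apoc1, a small protein that inhibits lipoprotein lipase and the uptake of remnant particles, had the lowest log2 change of the 9 genes with either drug, although with pravastatin its interval overlapped that of Apoa2 (95% intervals -2.44 to -2.01 for Apoc1 and -2.31 to -1.78 for Apoa2). Its level was 16.1, 16.6 and 16.8 (lowest, median, highest) with SQ1, against 17.2, 17.7 and 18.01 in the control channel of the same arrays. With pravastatin it was 15.1, 15.5 and 16.2, against 17.1, 17.8 and 18.4 in the control channel. For both drugs every treated sample lay below every control sample of those arrays, and with SQ1 Apoc1 was the only 1 of the 9 genes for which this held. The share of all genes tested for which it held was not counted. Taken array by array, the SQ1 ratios of Apoa2, Apoa4 and Apoc3 were below 0 on all 8 arrays too. That was so for 11.8% of genes with a ratio on every array. Apoc1 fell to a fitted -1.05 ± 0.10 with SQ1 (limma adjusted p = 1.23e-06) and -2.23 ± 0.10 with pravastatin (limma adjusted p = 1.72e-11), that is 2.07-fold and 4.68-fold lower. Of the 15049 genes tested, 30 had a lower log2 change than Apoc1 with SQ1 and 109 with pravastatin.

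Apoc3 inhibits lipoprotein lipase and slows the clearance of triglyceride-rich particles. Its SQ1 ratios lay between -0.75 and -0.24 with a median of -0.34, and its pravastatin ratios between -1.71 and -1.04 with a median of -1.20. With SQ1, replicates 1 and 5 had the lowest ratios and the other 6 arrays lay close together. The fit gave -0.42 ± 0.07 with SQ1 (limma adjusted p = 0.00026) and -1.28 ± 0.07 with pravastatin (limma adjusted p = 1.69e-10). Apoc3 was thus 1.34-fold lower with SQ1 and 2.42-fold lower with pravastatin.

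Apoa5, a protein that supports lipoprotein lipase and so acts in the opposite direction to Apoc3, was measured by a dim probe. Its log2 level was 6.99, 7.23 and 7.40 (lowest, median, highest) with SQ1, against 6.98, 7.11 and 7.19 in the control channel, and 6.68, 6.78 and 6.90 with pravastatin, against 6.83, 6.98 and 7.08. These levels are not far above the offset of 50 intensity units added in background correction, which shrinks ratios. With SQ1 its ratios ran from -0.16 through 0.16 to 0.27, above 0 on 7 of 8 arrays. The estimate of 0.12 ± 0.05 did not pass the test (limma adjusted p = 0.0526). Without SQ1 replicate 2, the only SQ1 array below 0, it was 0.16 ± 0.04 (limma adjusted p = 0.00617), without pravastatin replicate 4 its adjusted p was 0.0267, and the Agilent processed ratio gave 0.22 ± 0.08 (limma adjusted p = 0.0387), while under 22 of 28 alternatives it did not pass. With pravastatin Apoa5 fell by a small amount, -0.19 ± 0.05 (limma adjusted p = 0.00166), with ratios from -0.29 through -0.21 to 0.07. The Agilent processed ratio gave -0.34 ± 0.08 (limma adjusted p = 0.00106).

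Apoc4, a minor protein of triglyceride-rich particles in mice, had the largest difference between the drugs. Its level was 13.7, 13.9 and 14.3 (lowest, median, highest) with SQ1, against 13.8, 14.3 and 14.6 in the control channel, and 11.6, 12.5 and 12.7 with pravastatin, against 13.5, 14.2 and 14.5. The SQ1 and control levels overlapped over most of their range, and the pravastatin and control levels did not meet. The ratios ran from -0.66 through -0.34 to 0.02 with SQ1, and from -2.0 through -1.82 to -1.40 with pravastatin. The fitted change was -0.30 ± 0.07 with SQ1 (limma adjusted p = 0.00448) and -1.80 ± 0.07 with pravastatin (limma adjusted p = 5.87e-12), that is 1.23-fold and 3.48-fold lower.

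Apoe encodes the ligand by which hepatic receptors take up remnant particles. Its SQ1 ratios lay between -0.56 and 0.03 with a median of -0.18, and its pravastatin ratios between -1.55 and -0.83 with a median of -1.26. With SQ1, replicates 4, 7 and 8 lay near 0, at 0.03, -0.04 and -0.02, and no pravastatin array did. The fit gave -0.22 ± 0.07 with SQ1 (limma adjusted p = 0.0307), or 1.16-fold lower, and -1.24 ± 0.07 with pravastatin (limma adjusted p = 3.77e-10), or 2.35-fold lower. The SQ1 call of Apoe lay near the threshold. Leaving out SQ1 replicate 1, 2, 3, 5 or 6, each in turn, ended it, with limma adjusted p between 0.0502 and 0.105 and estimates between -0.23 and -0.17.

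**Figure D2:**
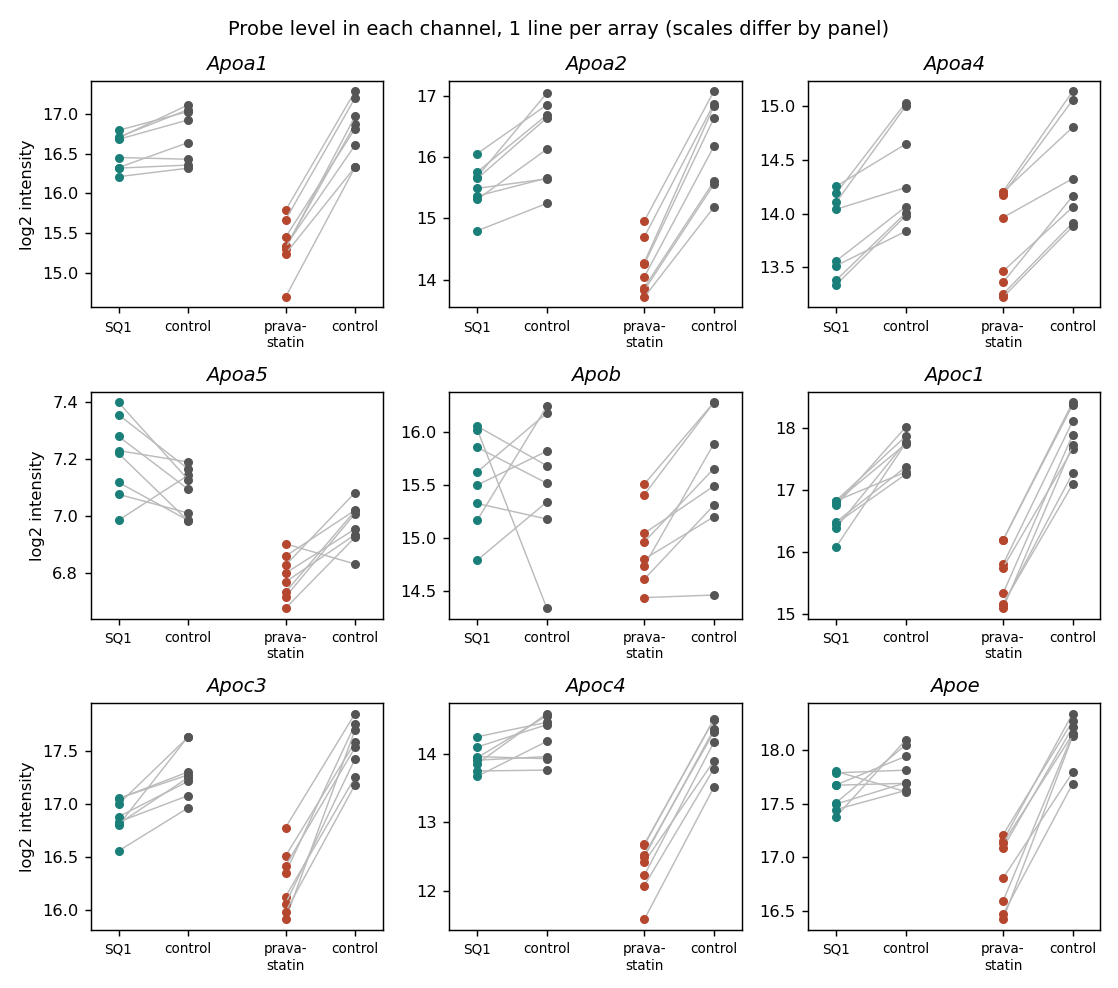
Log2 intensity of the probe of each measured apolipoprotein gene (1 panel per gene, vertical scales differ) in the treated channel (teal SQ1, red pravastatin) and the control channel (grey) of the same array, joined by a line, for 8 arrays per drug. Treated and control levels are fully apart for Apoc1 with SQ1 and for Apoa1, Apoa2, Apoc1, Apoc3, Apoc4 and Apoe with pravastatin. With the other Apoa2 probe, not drawn, they overlapped: pravastatin levels reached up to 15.3 and control levels down to 14.9. The share of all genes with levels apart in this way was not counted.

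Set directly against each other, the drugs differed for 7 of the 9 genes, each less reduced, or for Apoa5 higher, with SQ1 than with pravastatin. By the same test 53.1% of all genes differed between the drugs and 29.3% were higher with SQ1. This fit did not pair the arrays by replicate number, and the values that follow are from it unless another fit is named. With the replicate number as a random block 8 members differed, and as a fixed block 9, where 9620 and 9413 of the 15049 genes tested did. The difference (SQ1 minus pravastatin) was 1.49 ± 0.10 for Apoc4, 1.32 ± 0.18 for Apoa2, 1.24 ± 0.08 for Apoa1, 1.17 ± 0.14 for Apoc1, 1.02 ± 0.10 for Apoe and 0.85 ± 0.10 for Apoc3, with limma adjusted p between 8.56e-09 and 1.2e-05. For these 6 genes the SQ1 and pravastatin ratios did not overlap over the arrays, which was so for 20.7% of the genes with a ratio on every array, and for 12.4% with SQ1 on top. For Apoa5 the difference was 0.31 ± 0.06 (limma adjusted p = 0.00074) with overlapping ratios, and 0.56 ± 0.11 with the Agilent processed ratio (limma adjusted p = 0.00048).

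The other 2 genes did not pass in the fit without pairing. For Apoa4 the difference was 0.13 ± 0.10 (limma adjusted p = 0.28, 95% interval -0.08 to 0.35), and the SQ1 ratio was the higher in 7 of 8 same-numbered pairs of arrays. With the replicate number as a fixed block its adjusted p was 0.0233, and as a random block 0.0863. With the Agilent processed ratio the difference was 0.07 (limma adjusted p = 0.606), and it lay between 0.09 and 0.19 when leaving out 1 array. For Apob the difference was 0.64 ± 0.27 (limma adjusted p = 0.053, 95% interval 0.08 to 1.20). With the replicate number as a block its adjusted p was 0.00811 (random) or 0.00515 (fixed), and it also passed with the other Apob probe (0.0479) and without SQ1 replicate 3 (0.034), SQ1 replicate 6 (0.0224) or pravastatin replicate 8 (0.0385). Under 23 of 28 alternatives with the same probe it did not pass, among them slide as a random block (0.242) and leaving out SQ1 replicate 2, which lowered the difference to 0.42 ± 0.20 (limma adjusted p = 0.0829). The order of the SQ1 changes, from Apoc1 through Apoa2, Apoa4 and Apoc3 to Apoc4, Apoe and Apoa1, thus differed from that of pravastatin, which ran from Apoc1 through Apoa2, Apoc4, Apoa1, Apoc3 and Apoe to Apoa4, Apob and Apoa5.

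**Figure D3:**
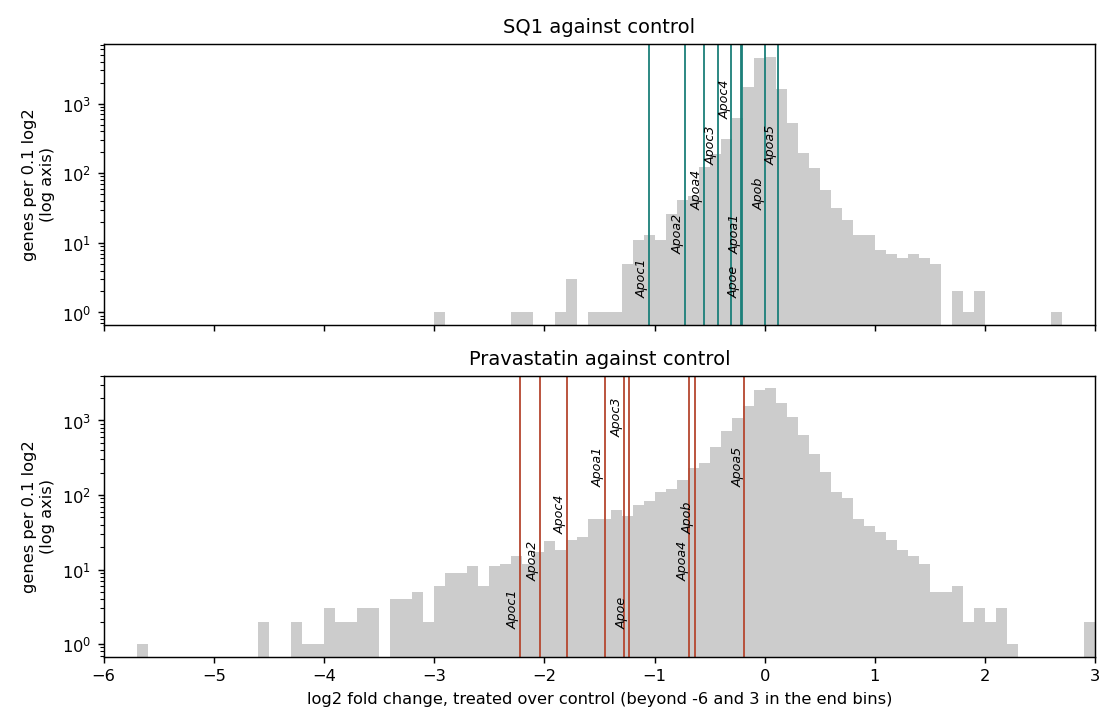
Number of genes (vertical log axis) by log2 change of treated over control (horizontal axis) for all 15049 genes tested, SQ1 above and pravastatin below, with a line at each measured apolipoprotein gene. With SQ1 the lines lie between -1.05 (Apoc1) and 0.12 (Apoa5), and with pravastatin between -2.23 (Apoc1) and -0.19 (Apoa5), where the distribution of all genes is wider too.

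The size of the SQ1 effect varied between the arrays of that drug. The median ratio of the 9 genes on an array was lowest at -0.66 in SQ1 replicate 1 and highest at 0.02 in SQ1 replicate 4, where 4 of 9 genes were below 0, and on the 8 pravastatin arrays it lay between -1.70 and -1.11. The arrays lay on slides that each held 1 drug. On slide 1 (SQ1 replicates 1, 2, 5 and 6) 7 members were called lower, where 19.5% of all genes were. On slide 2 (replicates 3, 4, 7 and 8) 4 members were called lower, where 13.0% were, and Apoa5 was called higher at 0.18 ± 0.06 (limma adjusted p = 0.0484), where 14.0% were.

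Apoc1 changed by -1.34 ± 0.09 with SQ1 on slide 1 and by -0.77 ± 0.09 on slide 2, and the slides differed (limma adjusted p = 0.00955), as they did for 3 of the 9 members and 12.3% of all genes. Apoa2 changed by -1.02 ± 0.11 on slide 1 and -0.43 ± 0.11 on slide 2 (adjusted p of the difference 0.0234). Apoe changed by -0.39 ± 0.07 on slide 1 and -0.05 ± 0.07 on slide 2 (adjusted p of the difference 0.0411). For Apoa1 and Apoc4 the fall was called on slide 1 only, at -0.31 ± 0.07 and -0.47 ± 0.09, but the slides did not differ past the threshold (adjusted p = 0.232 and 0.0903). Apoa4 and Apoc3 were called lower on both slides. Of the pravastatin slides, slide 3 was read on another scan day than the other 3 slides. Apoa2 there changed by -2.31 ± 0.11, against -1.77 ± 0.11 on slide 4, and Apoe by -1.38 ± 0.07, against -1.09 ± 0.07 (adjusted p of the differences 0.0212 and 0.0492). These were the only members for which those slides differed past the threshold, as 21.8% of all genes did. Genes of other secreted hepatocyte proteins moved with the slide as well: the median ratio of 21 of them averaged -0.48 over the arrays of slide 1 and -0.15 over those of slide 2, and its part in the apolipoprotein values was not tested.

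With slide or scan day as a random block 5 and 4 members were still called with SQ1, where 16.9% and 14.9% of all genes were. Apoa1 and Apoe were lost with either (limma adjusted p = 0.104 and 0.123 with slide), and Apoc4 with scan day (0.0833). Median centring in place of loess left 3 members called with SQ1 (Apoa2, Apoa4 and Apoc1), where 13.8% of all genes were, with Apoa1 at -0.07, Apoe at -0.07, Apoc4 at -0.18 and Apoc3 at -0.28, none past the test. That centring also turned the make-up of all SQ1 calls, of which 71.1% were higher, against 48.7% with loess. For pravastatin 61.0% of all calls were higher with median centring and 56.8% with the Agilent processed ratio, against 46.3% with loess, and for the difference 44.7% were higher with the Agilent processed ratio, against 55.1%.

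The genes lie in part in clusters. Apoa1, Apoc3, Apoa4 and Apoa5 follow each other on chromosome 9, and Apoc2, Apoc4, Apoc1 and Apoe on chromosome 7, while Apoa2 lies on chromosome 1 and Apob on chromosome 12. In the chromosome 9 cluster the pravastatin changes ran, in that gene order, -1.45, -1.28, -0.69 and -0.19, and the SQ1 changes -0.21, -0.42, -0.55 and 0.12. The gene order on the chromosome was also the order of the pravastatin estimates, though the intervals of Apoa1 and Apoc3 overlapped, and it was not that of SQ1. Apoa5, the last in this order, was measured by the dim probe whose ratios the offset shrinks. On chromosome 7, Apoc4, Apoc1 and Apoe changed by -0.30, -1.05 and -0.22 with SQ1 and by -1.80, -2.23 and -1.24 with pravastatin.

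Genes on either side of the clusters moved in both directions. For scale, 32.3% of all genes tested were called with SQ1 and 66.7% with pravastatin. Of 8 tested neighbours of the chromosome 9 cluster, 2 fell and 3 rose with SQ1, and 2 fell and 3 rose with pravastatin, with pravastatin changes from -0.56 to 0.42. Sik3 and Zpr1, which border the cluster, had pravastatin changes of -0.09 ± 0.05 (limma adjusted p = 0.147) and 0.42 ± 0.03 (limma adjusted p = 8.43e-09). The lowest neighbour was Tagln, an actin-binding protein gene, at -0.56 ± 0.07. Of 10 tested neighbours of the chromosome 7 cluster, 2 fell and 1 rose with SQ1, and 2 fell and 6 rose with pravastatin, with changes from -0.44 to 0.59. Clptm1 and Tomm40, which border it, had pravastatin changes of 0.00 ± 0.03 (limma adjusted p = 0.942) and 0.13 ± 0.03 (limma adjusted p = 0.00198). The largest rise was in Zfp296, at 0.59 ± 0.04, and the largest fall in Bcl3, at -0.44 ± 0.05.

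**Figure D4:**
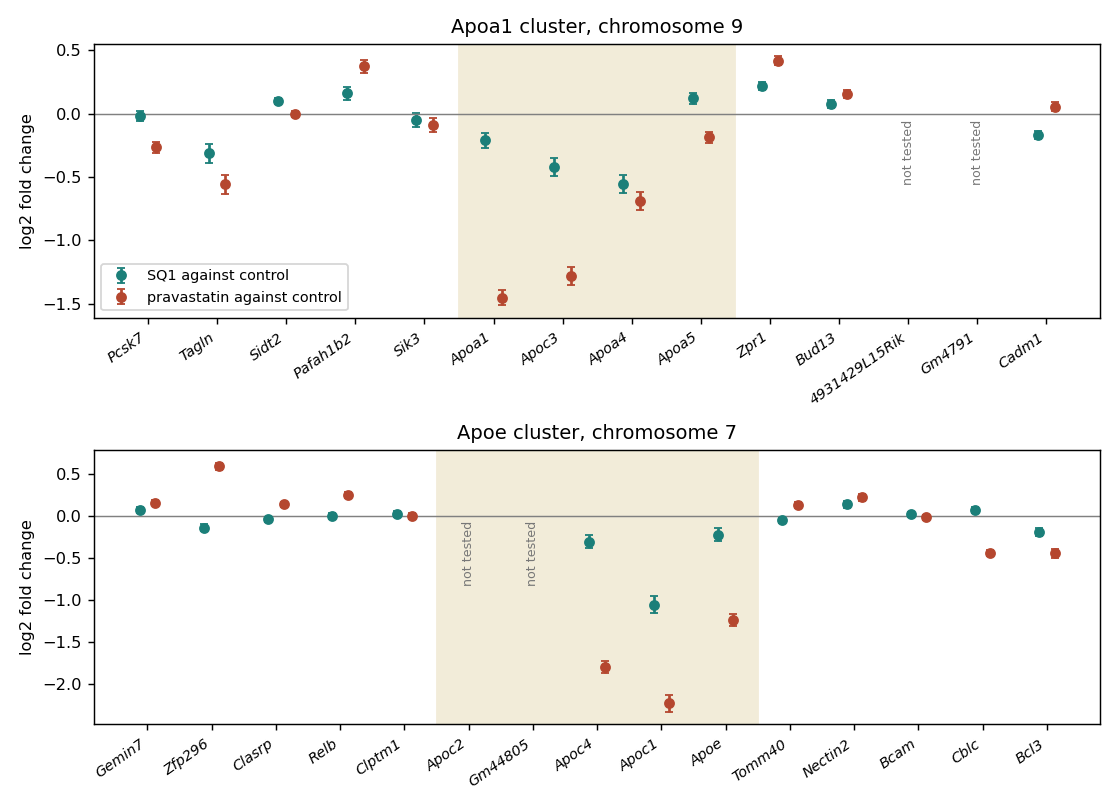
Log2 change with SQ1 (teal) and pravastatin (red) with standard errors, for the genes of the Apoa1 cluster on chromosome 9 and the Apoe cluster on chromosome 7 (shaded) and for their neighbours, in chromosomal order without scale. The shaded genes reach -1.45 and -2.23 with pravastatin, while the neighbours stay between -0.56 and 0.59.

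For each member, the tested gene outside the set with the most similar ratios over the 16 arrays was taken, by the root mean square difference of the log2 ratio. The smallest such difference was 0.09 between Apoa5 and Ankrd39, followed by 0.12 for Apoc4 and Gjb1, a gap junction gene, and 0.12 for Apoa2 and Lmnb2, a lamin gene. The measure depends on the size of the ratios, and those of Apoa5, from a dim probe, are shrunk by the offset. Its small difference is therefore not a sign of closer likeness than that of other members. Apoa1 was nearest to C730027H18Rik (0.13), Apoe to Fndc4 (0.13), Apoc3 to Hmgn5 (0.16) and Apoa4 to Serpina7 (0.17), which encodes thyroxine-binding globulin. Apoc1 was nearest to Fga, a fibrinogen chain, at 0.25, and Apob had no close match, with H2-Q4 at 0.42. These are descriptions of likeness over arrays that may share controls and that, within a drug, share slides.

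Transcripts of other proteins that travel on lipoproteins were called lower more often than higher with both drugs. Of 16 tested genes of further apolipoproteins and HDL-bound proteins, 8 fell and 1 rose with SQ1 (median -0.23), and 12 fell and 3 rose with pravastatin (median -0.77). Called were thus 56.2% with SQ1 and 93.8% with pravastatin, against 32.3% and 66.7% of all genes. Pon1, a paraoxonase carried on HDL, fell by 0.71 ± 0.17 with SQ1 (limma adjusted p = 0.00351), and its relative Pon3 rose by 0.12 ± 0.02 (limma adjusted p = 0.00142). With pravastatin Apoh fell by 2.03 ± 0.11 (limma adjusted p = 1.67e-10), and Clu, which encodes the chaperone clusterin, rose by 0.35 ± 0.09 (limma adjusted p = 0.00237).

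Of 22 tested genes for assembling and exporting lipoproteins, 15 were higher and 0 lower with SQ1 than with pravastatin. That is 68.2% differing between the drugs, where 53.1% of all genes differed and 29.3% were higher with SQ1. Of the same 22, 4 fell and 3 rose with SQ1 (median -0.03), against 17 fallen and 1 risen with pravastatin (median -0.50). The SQ1 share called, 31.8%, was near the 32.3% of all genes, and the pravastatin share was 81.8%, against 66.7%. Mttp, the transfer protein that loads lipid onto Apob, rose by 0.33 ± 0.07 with SQ1 (limma adjusted p = 0.00197), while Ces1d, a carboxylesterase that mobilises stored triglyceride, fell by 0.68 ± 0.20 (limma adjusted p = 0.0162). With pravastatin Aadac, another lipase-like esterase, fell by 2.80 ± 0.15 (limma adjusted p = 7.8e-11), and Sec23a, a coat protein of vesicles leaving the endoplasmic reticulum, rose by 0.11 ± 0.04 (limma adjusted p = 0.0207). Of 6 tested genes of the machinery that edits the Apob message, 1 fell with SQ1, Apobec1, the editing deaminase, by 0.15 ± 0.04 (limma adjusted p = 0.0137). With pravastatin 5 fell, and A1cf, the partner that guides Apobec1 to the message, fell by 1.33 ± 0.13 (limma adjusted p = 8.61e-08). The share lower with SQ1, 16.7%, was near the 16.6% of all genes, and with pravastatin it was 83.3%, against 35.8%.

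Of 12 tested genes acting on particles in plasma, 7 fell and 2 rose with SQ1 (median -0.28), and 10 fell and 0 rose with pravastatin (median -0.63). Called were thus 75% with SQ1 and 83.3% with pravastatin, against 32.3% and 66.7% of all genes. The 2 that rose with SQ1 were Angptl4, whose protein blocks lipoprotein lipase, by 0.64 ± 0.03, and Pltp, the phospholipid transfer protein, named after its value was seen, by 0.38 ± 0.04 (limma adjusted p = 9.11e-10 and 2.64e-06). Of 17 lipoprotein receptor genes and their regulators, 2 fell and 4 rose with SQ1 (median -0.01), and 11 fell and 5 rose with pravastatin (median -0.23). The SQ1 share called, 35.3%, was near that of all genes, and the pravastatin share was 94.1%. Lrp8, which encodes a receptor for Apoe, rose most with either drug, by 0.71 ± 0.06 with SQ1 and by 1.78 ± 0.06 with pravastatin (limma adjusted p = 6.16e-07 and 1.88e-12). The lowest were Vldlr with SQ1, at -1.05 ± 0.17, and the sorting receptor Sorl1 with pravastatin, at -1.44 ± 0.08 (limma adjusted p = 0.00026 and 2.0e-10).

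Among 31 transcription factors and cofactors known to act on apolipoprotein genes, 4 fell and 7 rose with SQ1 (median 0.01), and 22 fell and 6 rose with pravastatin (median -0.53). The SQ1 share called, 35.5%, was near the 32.3% of all genes, and the pravastatin share was 90.3%, against 66.7%. With SQ1 the forkhead factor Foxo1 rose by 0.71 ± 0.07 and the sterol element binding protein gene Srebf1 fell by 0.38 ± 0.08 (limma adjusted p = 1.17e-06 and 0.00129). With pravastatin Srebf2 rose by 0.72 ± 0.04 and the bile acid receptor gene Nr1h4 fell by 2.0 ± 0.14 (limma adjusted p = 8.63e-11 and 2.71e-09). Hnf4a and Creb3l3, chosen here after their values were seen, encode hepatocyte factors that act on several apolipoprotein genes. Hnf4a was at -0.08 with SQ1 (limma adjusted p = 0.577) and fell by 1.30 with pravastatin, and Creb3l3 rose by 0.60 with SQ1 and fell by 1.58 with pravastatin.

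**Figure D5:**
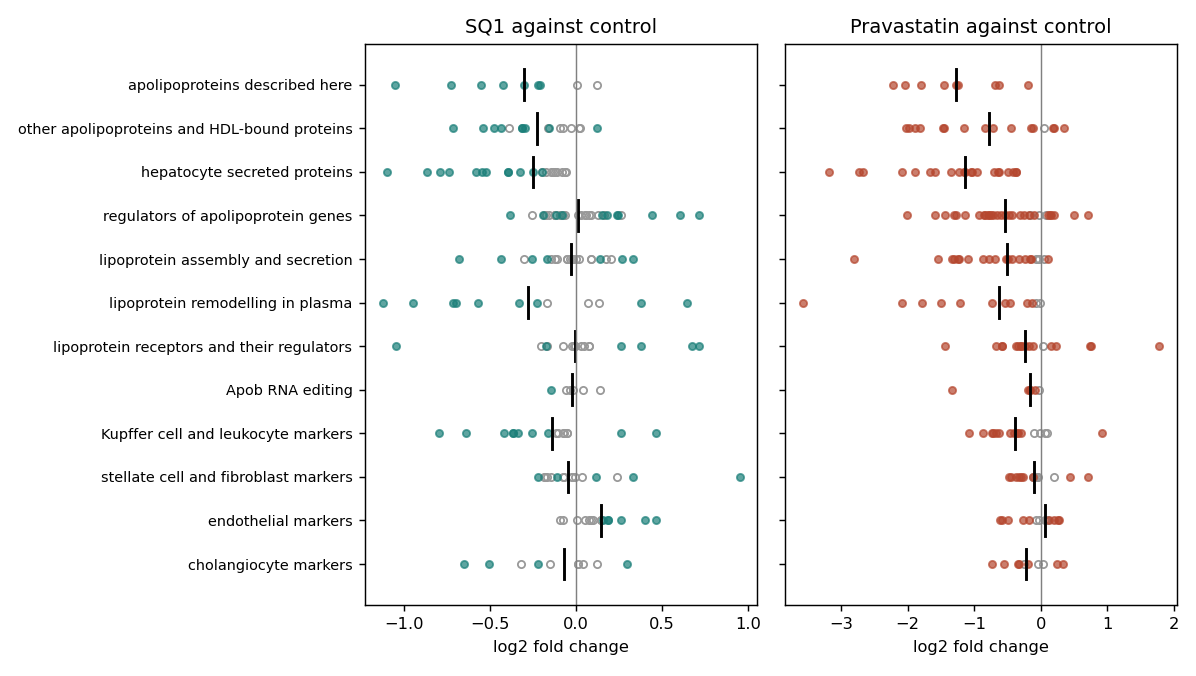
Log2 change with SQ1 (left) and pravastatin (right) of each tested gene in the apolipoprotein set and 11 related lists, filled where the adjusted p is under 0.05 and open otherwise, with the list median as a bar. The medians of the apolipoproteins (-0.30 and -1.28) lie beside those of other secreted hepatocyte proteins (-0.25 and -1.14).

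Transcripts of other proteins that hepatocytes secrete moved beside the apolipoproteins. Of 22 such genes, all 21 with a probe were above background. With SQ1 12 fell and 0 rose (median -0.25), and with pravastatin all 21 fell (median -1.14). Of all genes tested 16.6% were called lower with SQ1 and 35.8% with pravastatin. The lowest were the fibrinogen chain Fgg with SQ1, at -1.09 ± 0.11 (limma adjusted p = 1.42e-06), and antithrombin, Serpinc1, with pravastatin, at -3.18 ± 0.16 (limma adjusted p = 3.88e-11). The per-array median of this list ran from -0.52 to -0.06 over the SQ1 arrays and from -1.39 to -0.79 over the pravastatin arrays.

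Markers of other liver cells were also above background, so that the cultures held their transcripts. Of the 16 tested of 17 listed for Kupffer cells and leukocytes (macrophages also make Apoe), 8 fell and 2 rose with SQ1 (per-array medians -0.28 to -0.11), and 11 fell and 1 rose with pravastatin (-0.57 to -0.21). Of 15 endothelial markers, 0 fell and 6 rose with SQ1 (per-array medians -0.14 to 0.31), and 5 fell and 4 rose with pravastatin (-0.11 to 0.22). Of 16 markers of stellate cells and fibroblasts, 2 fell and 3 rose with SQ1, and 7 fell and 2 rose with pravastatin. Of 10 cholangiocyte markers, 3 fell and 1 rose with SQ1, and 5 fell and 2 rose with pravastatin. Called with SQ1 were 62.5% of the Kupffer cell and leukocyte, 40% of the endothelial, 31.2% of the stellate and 40% of the cholangiocyte markers. Of all genes tested 32.3% were called. The same shares with pravastatin were 75%, 60%, 56.2% and 70%, against 66.7% of all genes. The part of the makeup of the cultures in the apolipoprotein values was not tested.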

How the data were processed

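Per the file headers, the deposited scanner files hold the median intensity of each spot and its local background in both channels, unnormalized, with processed intensities and a log10 ratio that Agilent Feature Extraction 11.0.1.1 background-subtracted and dye-normalized within the array. The deposited series table holds log2 values that follow that ratio turned to treated over control (r = 0.742 to 0.999 per array), with per-array medians from -0.07 to 0.14, its centring is not given in the sources used here, and it served as an alternative.

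Median intensities were processed in R 4.3.3 with limma 3.58.1: normexp with an offset of 50, loess within each array, and spots of a probe averaged (Apoa1 and Apoe have 10 spots each). Spots marked as outliers were left out. Levels are log2 intensities after loess and Aquantile scaling, and levels of different probes were not compared. Of 39429 probes, 27234 were named for 20659 genes through RefSeq accessions. Probes had to be well above background on 4 arrays of a drug or in 8 control channels, and the brightest probe stood for its gene, which left 15049 genes tested and 5610 not tested.

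The ratio was fitted over all 16 arrays with a coefficient per drug and a dye term (13 residual degrees of freedom), two-sided, with Benjamini-Hochberg adjustment over all 15049 genes. Errors after ± are standard errors of that fit, and ratios of single arrays have the dye effect removed. The fit was tested on simulated data whose arrays were drawn independently, without effects of slide, scan day or replicate number. In the real data the correlations within these blocks were 0.27, 0.23 and 0.47. The simulation therefore does not show how the fit does where arrays share such effects.

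The replicate numbers were checked for pairing, since the deposited array names give same-numbered SQ1 and pravastatin arrays the same control number. Deviations of all 8 same-numbered pairs correlated, at 0.22 to 0.72. Only 3 of the 8 SQ1 arrays and 4 of the 8 pravastatin arrays correlated best with their own number. Differently numbered arrays correlated too, such as SQ1 replicate 1 and pravastatin replicate 5 at 0.76. This check of deviations therefore does not settle the pairing by itself, and a block for the replicate number was run as an alternative. The control levels of Apob, picked after they were seen, followed the replicate number. In replicates 1 to 8 they were 15.68, 14.33, 15.82, 15.52, 16.18, 16.24, 15.34 and 15.18 on the SQ1 arrays. On the pravastatin arrays they were 15.65, 14.46, 15.89, 15.49, 16.28, 16.28, 15.31 and 15.20. Whether the control RNA itself was shared was not tested. The members, the lists and the tests were chosen with earlier results of these data known. Every member was named, and of each other list the genes with the largest called rise and fall with each drug, some of which are not reported here. Alternatives were the background correction, normalization, filter, probe, source of values, blocks, array weights, threshold and leaving out each array.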

Additional observations from a re-analysis of the deposited data

Results flagged for a closer look

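In each of the 18 sets of 8 ratios (9 genes, 2 drugs), the array farthest out was compared with its nearest neighbour, and the gap was set against the whole range of the set (Dixon's ratio, against its 95% critical value). By chance about 1 set in 20 would pass. In 2 sets an array stood apart, and both were pravastatin replicate 4. Its Apoa5 ratio was 0.066, the only pravastatin ratio of Apoa5 above 0, with a gap of 0.611 of the range. Its Apoc4 ratio was -1.40, the highest of the 8, with a gap of 0.571 of the range. Without that array the pravastatin change of each gene was still called in the same direction.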

How the results depend on the processing

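All 9 pravastatin falls except that of Apob passed the test under every alternative run, and so did the SQ1 falls of Apoa2, Apoa4 and Apoc1. Over the alternatives Apoc1 changed by -1.14 to -0.90 with SQ1 and by -2.30 to -1.97 with pravastatin. Of single-gene values under alternatives, 724 kept direction and side of the threshold, 13 newly passed it, 19 no longer passed it and 6 changed sign. The sign changes were all of Apob with SQ1: -0.22 with the other probe, -0.10 with array weights, and -0.21 to 0.13 when leaving out 1 array. The count of SQ1 calls was 4860, and 2071 with median centring, 2543 with slide and 2238 with scan day as a block, 3121 at an adjusted p of 0.01 and 7498 with each of 25821 probes tested by itself. The same probe setting gave 16475 calls for pravastatin, against 10039, and 12583 for the difference, against 7996. Those probe counts are out of 25821 probes and the main counts out of 15049 genes, so that the 2 stand on unlike bases. Median centring gave 3697 calls for the difference. With SQ1, members called numbered 3 with median centring and 4 with the scan-day block, against 7, and genes of the other lists 51 and 53, against 89. Leaving out 1 array gave 4051 to 5104 SQ1 calls, 9611 to 10045 pravastatin calls and 7480 to 8273 for the difference. With the replicate number as a random block 9620 genes differed between the drugs, and 9413 with it as a fixed block, which allows only the difference. Apart from Apob and Apoa4 in the difference, pairing changed no call of a member. The causes of these shifts were not tested. Fitting each drug alone holds no contrast between the drugs, so that this setting has no value for their difference. The number of arrays limits the precision.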
